A study of Rattus norvegicus with 8 samples.

Results

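Hsp90 and its cochaperones were followed here as a set of 10 genes: the cytosolic chaperones Hsp90aa1 and Hsp90ab1, the cochaperones Stip1, Chordc1, Ahsa1, Cdc37, Ptges3 and Fkbp4, the mitochondrial relative Trap1, and the transcription factor Hsf1. Members were found as probe sets whose platform annotation gave exactly 1 gene symbol, equal to a listed gene. Of the 10 genes, 9 had such a probe set, 1 each, out of 28826 probe sets (14497 named genes) in all; Ahsa1 had no probe set named here. The set was selected on earlier results for the same contrast, the log2 difference between treated and placebo hearts. The differences of the members are therefore a description. Whether a member passed the threshold of the fit over all probe sets (adjusted p of 0.05) is given as part of that description and supports nothing. The samples were 8 arrays of total RNA from the left ventricle of late-pregnant female rats, all after ischemia and reperfusion. The placebo group (3 samples) received vehicle at reperfusion, and 5 samples received what the labels call ILPD. The design text names it ITLD and gives the dose, a bolus of 5 mg/kg; that both abbreviations mean the same treatment, and that it is the lipid emulsion Intralipid of the series title, was assumed. The age, strain and time of sampling were not given in the sources used here, and no heart without ischemia was analysed here. Arrays are numbered as replicates in the labels, which do not say that each is a separate animal, so the errors measure the spread between these arrays, which may be partly technical.

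Hsp90 is an abundant chaperone that works as a dimer and uses ATP to bring client proteins, many of them kinases and steroid receptors, into an active fold. Cochaperones steer that cycle: some carry clients over from Hsp70, some recruit kinases, some speed up or slow down the ATPase, and some bind through TPR domains to the end of the Hsp90 chain. Hsp90 also holds Hsf1 inactive in unstressed cells. Once released, Hsf1 binds heat shock elements, repeats of the letters GAA in alternating orientation, in the genes of many of these same chaperones. In the heart this response is known to be raised by heat and by ischemia followed by reperfusion.

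Array medians lay between 7.08 and 7.20 on the log2 scale, and precision is limited by how few arrays there are. The tissue label was checked against marker genes. The 15 ventricular cardiomyocyte markers had a mean log2 value of 13.60 to 13.68 in placebo arrays and 13.41 to 13.61 in ILPD arrays, and all 15 had a negative difference, with a median of -0.14 (1 passed the test, Tnnc1). Bright probe sets in general were also lower: those within 0.5 log2 units of the mean value of Hsp90ab1 had a median difference of -0.13. Whether the cardiomyocyte markers differ beyond that trend was not tested. The 9 neutrophil markers all had a positive difference, with a median of 0.74 and a mean log2 value of 7.67 to 8.16 in placebo and 8.31 to 9.24 in ILPD (1 passed, Mmp9). Median differences of the endothelial, fibroblast, smooth muscle, macrophage and lymphocyte lists lay between -0.09 and 0.17; 1 gene rose in each of them but the fibroblast list, Egfl7 (0.60), Kcnj8 (0.64), Cx3cr1 (0.76) and Klrd1 (0.52). Of 5 atrial markers 4 were measured and 0 passed in limma, also at an unadjusted p under 0.05. Their mean log2 value was 9.29 to 9.79 in placebo and 8.78 to 10.04 in ILPD, and Myl7 had an SD of 1.18 among the placebo arrays. In whole tissue, fewer cells of a type and less RNA per cell cannot be told apart. The part of the cell mix in the differences below was not tested.

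The cytosolic Hsp90 genes were both lower in ILPD. Hsp90aa1, the stress-inducible form (probe set 10892184), had log2 values of 12.70, 13.12 and 13.07 in placebo arrays 1 to 3. Its ILPD arrays 1 to 5 read 11.48, 11.80, 11.39, 11.80 and 11.60. All 5 treated values lay below the lowest placebo value, with a gap of 0.905. The mean fell from 12.96 ± 0.23 (SD, n = 3) to 11.61 ± 0.18 (SD, n = 5), a difference of -1.35 (SE 0.12) or 2.55-fold. Hsp90ab1, the more constitutive form (probe set 10921850), had 13.56, 13.55 and 13.56 in placebo and 13.01, 13.04, 13.00, 12.85 and 12.92 in ILPD. The placebo values were almost identical and no treated array reached them. Its mean fell from 13.56 ± 0.01 (SD, n = 3) to 12.96 ± 0.08 (SD, n = 5), by -0.59 (SE 0.06) or 1.51-fold. Within each array, the log2 value of Hsp90aa1 minus that of Hsp90ab1 differed by -0.76 between ILPD and placebo, also as a description. The proteins of these genes are close relatives, and whether the probe set of one also binds transcripts of the other was not tested.

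**Figure D1:**
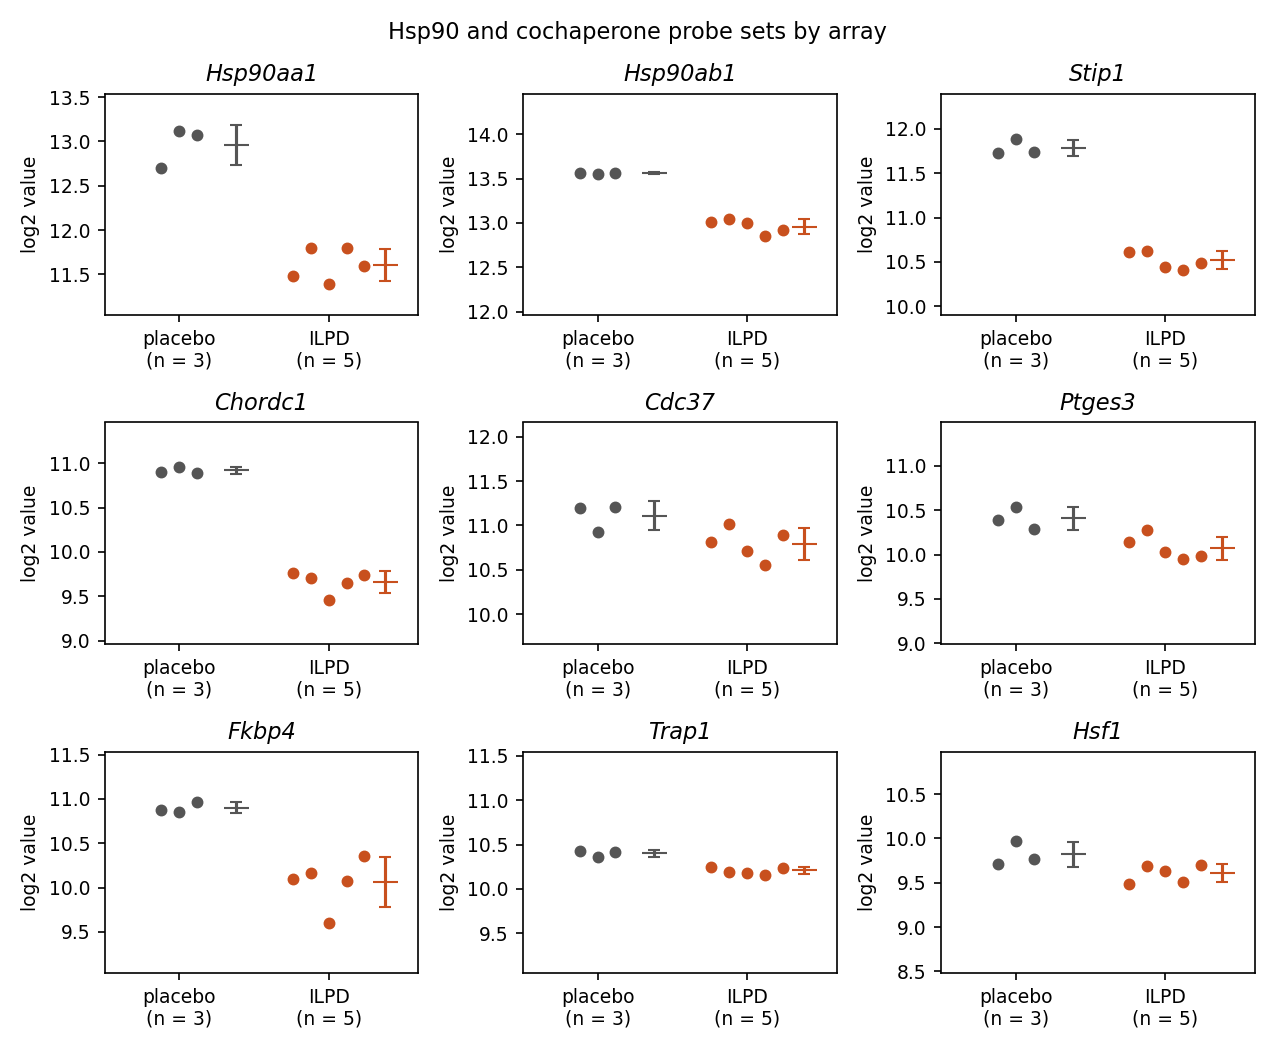
Log2 values of the 9 measured members in 3 placebo and 5 ILPD arrays; each point is an array, the bar beside it the mean with its SD, and every panel spans 2.5 log2 units. All ILPD points lie below all placebo points for 8 of 9 genes, by a gap of 1.130 for Chordc1 and 0.003 for Hsf1, while those of Cdc37 overlap.

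Stip1 and Chordc1 differed by nearly the same amount as Hsp90aa1. Stip1, also called Hop, links Hsp70 to Hsp90 so that a client can be passed on (probe set 10728361). It read 11.73, 11.89 and 11.74 in placebo and 10.61, 10.62, 10.44, 10.41 and 10.49 in ILPD. The 2 groups lay 1.102 apart, far more than the spread within either. The mean fell from 11.78 ± 0.09 (SD, n = 3) to 10.52 ± 0.10 (SD, n = 5), by -1.27 (SE 0.07) or 2.41-fold. Chordc1, a CHORD-domain cochaperone also called morgana that binds the ATP-binding end of Hsp90 (probe set 10908133), read 10.90, 10.96 and 10.89 in placebo. Its ILPD values were 9.76, 9.71, 9.46, 9.65 and 9.74. ILPD array 3 was the lowest, and the gap between groups was the widest of the members. The mean fell from 10.92 ± 0.04 (SD, n = 3) to 9.66 ± 0.12 (SD, n = 5), by -1.26 (SE 0.07) or 2.39-fold.

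Heat shock elements are the sites through which Hsf1 acts, and the promoter windows of members are shown as a description. Whether Hsf1 had a part in the differences was not tested. The windows are those of RefSeq on the rat build GRCr8, 300 bases from 250 before to 50 after the start site that the table uses, and they matched 8 of the 10 genes (not Hsp90aa1 or Hsf1). Both strands were searched for a pair of GAA units, TTCNNGAA or GAANNTTC, which read the same on either strand, and for at least 3 alternating units, where neighbouring pairs overlap. Matches are in capitals.
Chordc1 (chr8:23650571-23650870, plus strand): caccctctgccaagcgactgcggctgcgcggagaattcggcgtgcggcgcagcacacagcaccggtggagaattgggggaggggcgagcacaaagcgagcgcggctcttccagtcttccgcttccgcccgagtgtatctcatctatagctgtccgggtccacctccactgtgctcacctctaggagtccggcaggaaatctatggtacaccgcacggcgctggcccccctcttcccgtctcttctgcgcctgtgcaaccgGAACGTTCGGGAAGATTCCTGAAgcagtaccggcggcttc
Stip1 (chr1:213657605-213657904, minus strand): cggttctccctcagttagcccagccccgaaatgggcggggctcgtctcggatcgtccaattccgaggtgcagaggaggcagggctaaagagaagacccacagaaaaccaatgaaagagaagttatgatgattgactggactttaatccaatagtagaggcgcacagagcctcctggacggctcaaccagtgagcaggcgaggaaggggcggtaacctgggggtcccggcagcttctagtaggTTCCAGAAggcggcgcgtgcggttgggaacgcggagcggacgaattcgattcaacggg
Cdc37 (chr8:27967049-27967076, minus strand, match and 10 bases on each side): cggcgggaacTTCCAGAAggccgcacca
Fkbp4 (chr4:163398038-163398065, minus strand, match and 10 bases on each side): cgcttctctaGAAAGTTCtccgctcccg

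The Chordc1 window held an unbroken run of 5 alternating units over 23 bases, at positions 11 to 33 when the first transcribed base of the window is 1. At least 3 units were found in 0.798% of all 33469 promoter windows of the same length. Stip1 held a pair directly before the start, at -8 to -1, Cdc37 a pair at -136 to -129 and Fkbp4 a pair at -137 to -130. No match lay in the windows of Hsp90ab1, Ahsa1, Ptges3 and Trap1, which says only that these letters are not in this stretch. A pair of either kind was found in 4 of 8 member windows and in 15.9% of all windows. Among the members with a pair, the differences in ILPD ran from -1.27 for Stip1 to -0.32 for Cdc37. Hsp90ab1 fell with no match in its window. These matches are descriptions of sequence, and binding was not measured.

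**Figure D2:**
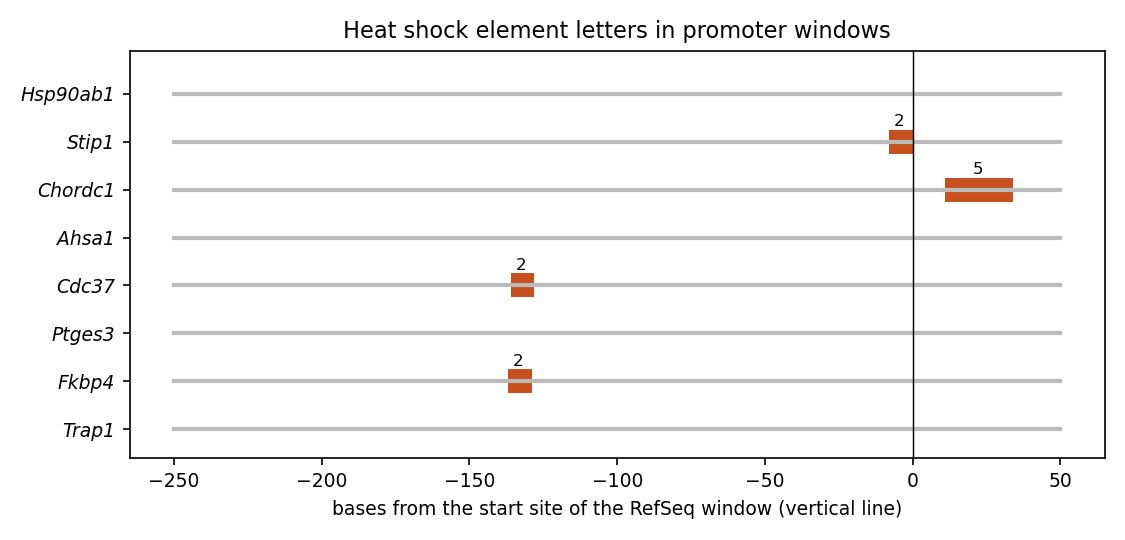
Position of heat shock element letters in the RefSeq promoter windows of 8 genes, in bases from the start site (vertical line); orange bars are matches and the number above each is its count of alternating GAA units. Chordc1 has 5 units just after the start, Stip1, Cdc37 and Fkbp4 have 2, and the other 4 windows have none.

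Fkbp4, an immunophilin with TPR domains that serves steroid receptor complexes (probe set 10865855), was lower in ILPD with more scatter. Its placebo values were 10.88, 10.85 and 10.97, and its ILPD values 10.10, 10.16, 9.60, 10.08 and 10.36. ILPD array 3 lay far down and array 5 highest, yet every treated value was below the placebo arrays. The mean fell from 10.90 ± 0.06 (SD, n = 3) to 10.06 ± 0.28 (SD, n = 5), by -0.84 (SE 0.14) or 1.79-fold. It no longer passed the threshold without placebo array 1, 2 or 3, where the difference was -0.85, -0.86 and -0.80.

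Cdc37, which brings kinases to Hsp90 (probe set 10915538), read 11.20, 10.92 and 11.21 in placebo and 10.81, 11.01, 10.71, 10.55 and 10.89 in ILPD. Placebo array 2 lay below ILPD array 2, so the groups overlapped. Its difference was -0.32 (SE 0.11), from 11.11 ± 0.16 (SD, n = 3) to 10.79 ± 0.18 (SD, n = 5), and it did not pass the threshold. Ptges3, or p23, which steadies the closed form of Hsp90 and was also named as a prostaglandin E synthase (probe set 10892962), read 10.39, 10.54 and 10.29 against 10.14, 10.28, 10.03, 9.95 and 9.98. Its groups were parted by only 0.013. The difference was -0.33 (SE 0.09), from 10.41 ± 0.13 (SD, n = 3) to 10.07 ± 0.13 (SD, n = 5), and did not pass.

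Trap1, the Hsp90 relative of the mitochondrial matrix (probe set 10731853), differed least. It read 10.43, 10.36 and 10.42 in placebo and 10.25, 10.19, 10.18, 10.16 and 10.24 in ILPD. The groups did not overlap, and the spread within each was narrow: only 2.53% of all probe sets had a smaller within-group SD. Its difference was -0.20 (SE 0.05) and did not pass. Hsf1 (probe set 10897288) read 9.71, 9.97 and 9.77 in placebo against 9.49, 9.69, 9.63, 9.51 and 9.70 in ILPD. The lowest placebo array and the highest treated array were only 0.003 apart. Its difference was -0.21 (SE 0.08), from 9.82 ± 0.14 (SD, n = 3) to 9.61 ± 0.10 (SD, n = 5), and did not pass. It was -0.13 without placebo array 2. These arrays measure transcripts, and the activity of the Hsf1 protein was not measured.

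Over the 9 measured members, 5 passed an adjusted p of 0.05 as lower (Hsp90aa1, Hsp90ab1, Stip1, Chordc1 and Fkbp4) and 0 as higher in limma's fit over all probe sets. Over all 28826 probe sets 0.857% passed as lower and 1.96% as higher. All ILPD arrays lay below all placebo arrays for 8 of 9 members, and for 4.42% of all probe sets. Nothing is read from these counts, since the same contrast chose the genes. The median difference was -0.59 over the members and 0.02 over all probe sets. Members are bright, and bright probe sets tended to be lower in ILPD: among probe sets within 0.5 log2 units of a member's mean value, the median difference was between -0.14 (for Hsp90aa1) and -0.06 (for Hsf1). Relative to that median, the differences were -1.21 for Hsp90aa1, -0.46 for Hsp90ab1, -1.14 for Stip1, -1.17 for Chordc1 and -0.75 for Fkbp4. They were -0.20 for Cdc37, -0.24 for Ptges3, -0.11 for Trap1 and -0.15 for Hsf1. After cyclic loess normalization, which evens out such trends, Cdc37 differed by -0.21 and Trap1 by -0.11. The members' median was then -0.41, with 5 passing.

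**Figure D3:**
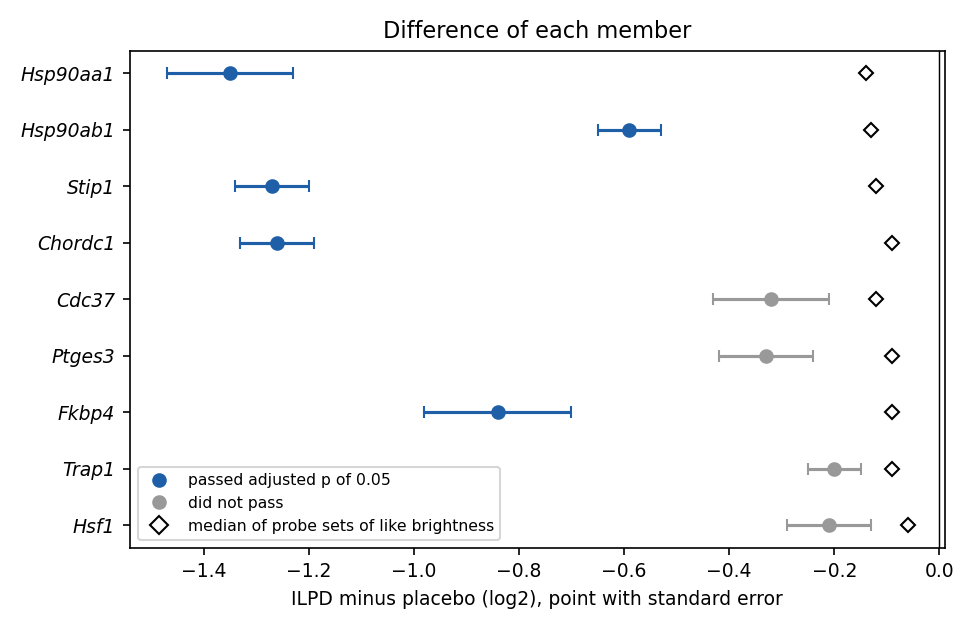
ILPD minus placebo on the log2 scale for each member, with its standard error from limma; blue points passed an adjusted p of 0.05 and grey points did not. Open diamonds give the median difference of probe sets within 0.5 log2 units of the same brightness, between -0.14 and -0.06, to the right of every member's own value.

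The members also varied from array to array within a group. Of the 5 treated arrays, ILPD array 2 was the highest for 5 of 9 members and the lowest for none (0), and ILPD array 4 was the lowest for 5. ILPD array 3 was the lowest for 3, Hsp90aa1, Chordc1 and Fkbp4. Among the 5 members that passed, array 3 lay on average 0.19 below the group mean (-0.19) and array 2 above it by 0.10. Of the placebo arrays, array 2 was the highest for 5 and the lowest for 4. Hsp90aa1 and Fkbp4 had a wide within-group SD (0.20 and 0.23, larger than for 89.8% and 93.6% of probe sets), whereas Hsp90ab1 had 0.06, larger than for 16.5%. The median over all probe sets was 0.10.

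**Figure D4:**
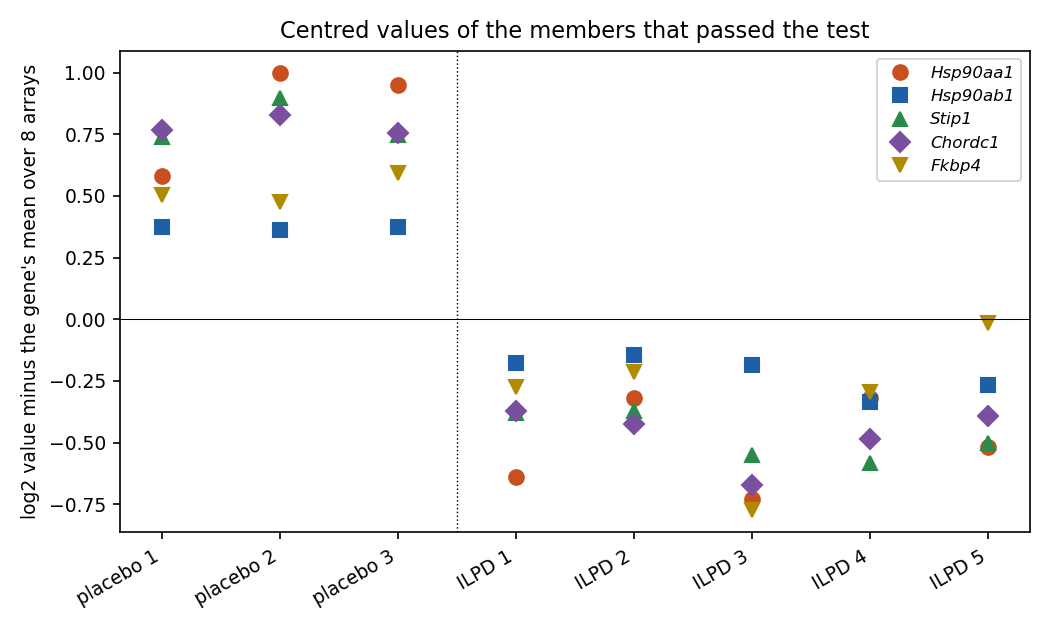
Log2 value of the 5 members that passed, minus each gene's mean over the 8 arrays, by array; the dotted line parts placebo from ILPD arrays, and the arrays of a group have no order. Hsp90aa1, Chordc1 and Fkbp4 are lowest in ILPD array 3, Hsp90ab1 and Stip1 in ILPD array 4.

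As a description of likeness, the centred profile over the 8 arrays was set against those of 14497 named genes by root mean square distance. Closest to Hsp90aa1 were Ccdc117 (0.13 log2 units) and the arginine- and serine-rich protein gene Rsrp1 (0.14). Chordc1 and Stip1 followed (0.17 each), then Serpinh1, the collagen chaperone (0.19). Closest to Stip1 were Chordc1 (0.07), Ccdc117 (0.11), Cacybp (0.11), Banp (0.16) and Rsrp1 (0.17). The profile of Hsp90aa1 itself had an SD of 0.72 and that of Stip1 0.66. Chordc1 was thus the nearest of all named genes to Stip1. These profiles hold the difference between ILPD and placebo, the contrast by which the set was selected. The neighbours named had differences between -1.48 (Rsrp1) and -1.02 (Banp), so their likeness is in part that shared difference. It is no separate evidence that the genes are regulated together.

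The gene lists outside the set were chosen with earlier results of these data known, so their counts and adjusted p-values are also a description. Cochaperones and partners of Hsp90 outside the set were taken from a list of 40 genes, of which 33 were measured. Here 5 fell and 0 rose in limma, where 0.857% of all probe sets fell and 1.96% rose. At an unadjusted p under 0.05, 12 were lower and 3 higher, where 7.01% and 11.3% of all probe sets were. A total of 24 had a negative difference, and the list median was -0.11 against 0.02 for all probe sets. Cacybp, a Sgt1-related adaptor of the ubiquitin ligase Siah1 (probe set 10769131), had a mean log2 value of 11.41 ± 0.18 (SD, n = 3) in placebo and 10.25 ± 0.20 (SD, n = 5) in ILPD. It fell by 1.16 (SE 0.12), with a limma adjusted p of 0.00203. Ahsa2, a relative of the ATPase activator Ahsa1 (probe set 10778721), went from 9.46 ± 0.23 to 8.51 ± 0.07, a fall by 0.95 (SE 0.09; adjusted p = 0.00161). St13, or Hip, a TPR cochaperone that works on Hsp70 beside Stip1, fell by 0.63 (SE 0.09, adjusted p = 0.00744). Its other probe sets gave -0.59 (adjusted p = 0.0256) and -0.38 (0.286). Hsp90b1, the Hsp90 of the endoplasmic reticulum, fell by 0.50 (SE 0.07, adjusted p = 0.00799). Each of these 4 genes passed under the 15 alternatives run for it; the highest adjusted p was 0.0202, 0.0243, 0.0452 and 0.0448 in turn. Unc45b, the muscle cochaperone that helps Hsp90 fold myosin, fell by 0.41 (adjusted p = 0.0461). That call held in 5 of 15 alternatives: it was lost without any placebo array, without ILPD array 1, 3 or 4, after either normalization, with the trended prior and with the replicate block (adjusted p of 0.0555 to 0.134 in these settings).

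Other cochaperones did not pass. Itgb1bp2, or melusin, the muscle relative of Chordc1, differed by -0.31 (SE 0.13, limma adjusted p = 0.246), in contrast to the fall of Chordc1; whether the 2 differ from each other was not tested. Ppid, the cyclophilin of the Hsp90 complex, gave -0.29 (0.0802), and the TPR phosphatase Ppp5c -0.21 (0.126). The ubiquitin ligase Stub1, or CHIP, gave -0.21 (0.2), and Sugt1 0.02 (0.936). Fkbp5, the immunophilin paired with Fkbp4 and a known glucocorticoid target, had the highest difference of the list, 0.48 (SE 0.19), with an ILPD SD of 0.39 against 0.03 in placebo. It did not pass (adjusted p = 0.215). Unc45a, the general relative of Unc45b, gave 0.16 (0.208), and Cdc37l1 gave 0.13 (0.43).

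**Figure D5:**
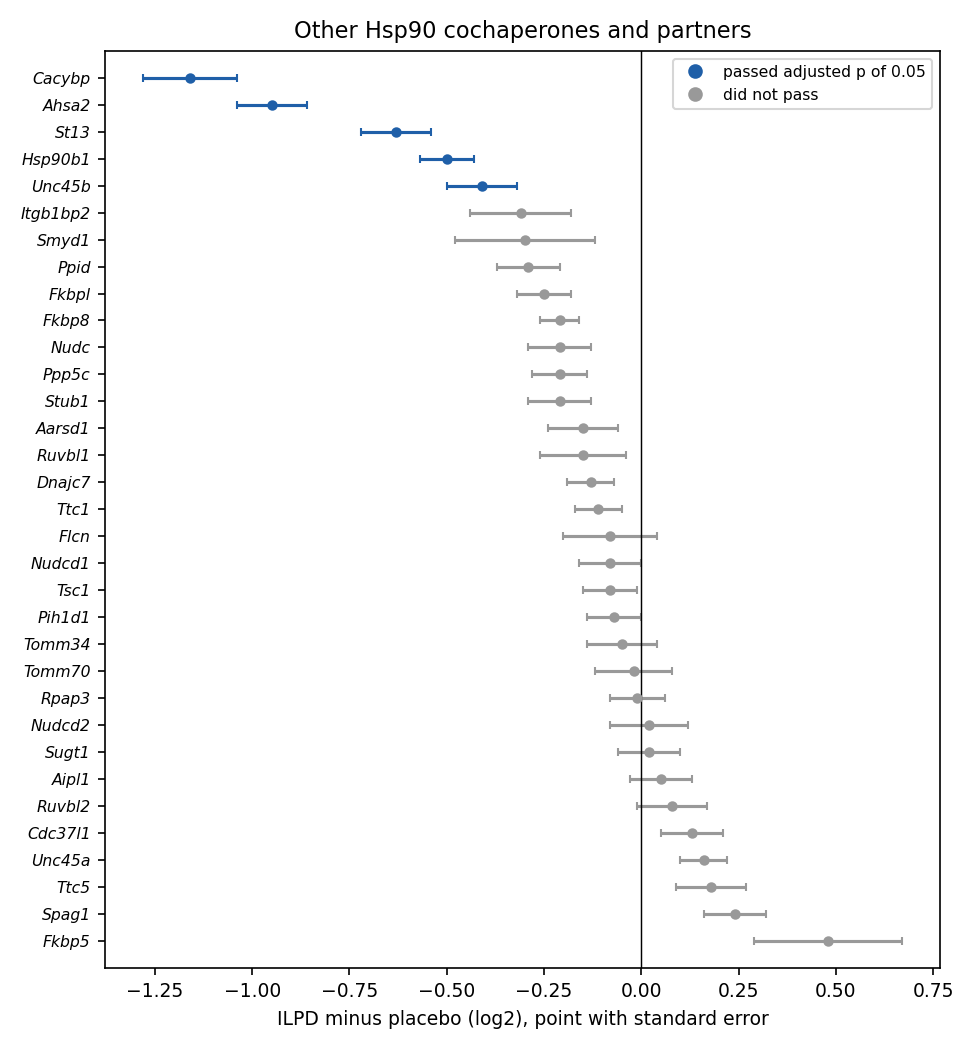
ILPD minus placebo on the log2 scale, with the standard error from limma, for the 33 measured cochaperones and partners outside the set, ordered by difference. The 5 blue points, Cacybp (-1.16) to Unc45b (-0.41), passed an adjusted p of 0.05, and the other points (grey), up to Fkbp5 (0.48), did not.

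Hsp70 hands clients to Hsp90. The list named here the Hsp70 arm of the cytosolic heat shock response also holds small heat shock proteins such as Hspb1 and Cryab. It had 26 measured genes. In limma 10 of them fell and 0 rose (0.857% and 1.96% of all probe sets), with a median of -0.27. At an unadjusted p under 0.05, 16 were lower and 1 higher (7.01% and 11.3% of all probe sets). The largest differences were those of Dnajb1 (-2.89), Hsph1 (-2.22) and Dnaja1 (-1.31). The others that fell were Hspb1 (-0.98), Bag3 (-0.74), Dnaja4 (-0.73), Dnajb4 (-0.48), Hspa4 (-0.46), the Hsp70 import factor Hikeshi (-0.44) and Hspa8 (-0.38). Of these, 4 passed without placebo array 2 and 4 without placebo array 3; Dnajb1, Hsph1 and Hspb1 held in all 15 alternatives, and Hspa8 in all but cyclic loess. Hikeshi held in 4 of 15. The list's median was -0.16 after cyclic loess and -0.17 after a further quantile normalization. Hspa1a, Hspa1b and Hspa1l had no probe set named here.

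Genes for client proteins of Hsp90 had differences of either sign, 22 positive and 19 negative of 41 measured, with a median of 0.01. In limma 1 rose and 0 fell, where 1.96% of all probe sets rose and 0.857% fell. A rise of 1 gene among 41 is near that share. At an unadjusted p under 0.05, 7 were higher and 9 lower, where 11.3% and 7.01% of all probe sets were. Ripk1, a kinase of cell death signalling, went from 9.05 ± 0.20 (SD, n = 3) to 9.56 ± 0.10 (SD, n = 5). It rose by 0.51 (SE 0.09), with a limma adjusted p of 0.0227. That call was lost without placebo array 1, placebo array 2 or ILPD array 2 (up to 0.0734). The autophagy kinase Ulk1 gave -0.46 (adjusted p = 0.0543) and the kinase Akt1 -0.38 (0.163). The glucocorticoid receptor gene Nr3c1 gave -0.25 (0.0743) and Hif1a 0.13 (0.573).

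Of the heat shock factors other than Hsf1 and their regulators, 0 of 21 measured passed in limma. Over all probe sets 0.857% fell and 1.96% rose. At an unadjusted p under 0.05, 5 of the 21 were lower and 2 higher, against 7.01% and 11.3% of all probe sets. The list had a median of -0.11. Hsf2 differed by 0.12 (SE 0.10) and Hsf4 by 0.05 (SE 0.07). The largest differences were those of the acetyltransferase Ep300 (-0.35, adjusted p = 0.0547), Smarca4 (-0.30, 0.154) and Vcp (-0.21, 0.249). The list's median was -0.02 after cyclic loess.

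In the mitochondrion, where Trap1 works, 3 of 26 genes of a protein quality control list fell and 0 rose in limma. Over all probe sets 0.857% fell and 1.96% rose. At an unadjusted p under 0.05, 8 of the 26 were lower and 0 higher, against 7.01% and 11.3% of all probe sets. The list, which also holds Sdha, Sdhb and Ppif, had a median of -0.15. Hspd1, the chaperonin, fell by 0.80 (SE 0.09, limma adjusted p = 0.00307), although its dimmer probe set gave -0.38 (0.0808). The call of Hspd1 held in all 15 alternatives, with differences of -0.87 to -0.59. Its partner Hspe1 fell by 0.61 (SE 0.12, adjusted p = 0.0311). Hspa9, the matrix Hsp70, fell by 0.28 (SE 0.06, adjusted p = 0.0433). Without placebo array 2 or 3 or ILPD array 2 or 4, 1 gene passed. The call of Hspe1 held in 8 of 15 alternatives and that of Hspa9 in 4 (adjusted p of up to 0.14 and 0.234). After cyclic loess the list's median was -0.05. Clpb, a disaggregase, gave -0.31 (0.12).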

How the data were processed

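Gene expression was measured on Affymetrix arrays, and the authors deposited 1 table of log2 values for 28826 probe sets in 8 samples. The scale was settled from the values. Their normalization method was not given in the sources used here. Only R 2.14.2 is named in the submitters' processing notes. No detection call was used. Names came from the platform annotation, updated by gene ID through a RefSeq table of GRCr8: 15209 probe sets had 1 symbol (15178 matched), 306 several and 13311 none here. The brightest probe set stood for a gene.

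ILPD was compared with placebo in limma 3.58.1 (R 4.3.3; lmFit, eBayes, no covariate, no further filter), two-sided; p-values were adjusted by Benjamini-Hochberg over all 28826 probe sets, and 0.05 was the threshold. The method was tested on simulated data. Named genes were the members, the genes of 5 lists that passed, the 3 largest differences of each list and the 5 nearest profiles; other list genes that are named were chosen after their values were seen. Members and lists were chosen with earlier results of these data known. Alternatives were a trended robust prior, quantile and cyclic loess normalization, a filter on the dimmest 40%, array weights, a replicate block, a threshold of 0.10, averaging the probe sets of a gene, and omitting each array in turn. Figures were drawn with matplotlib 3.10.9.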

Additional observations from a re-analysis of the deposited data

How the results depend on the processing

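The number of members that passed was 5 under every setting of normalization, prior, filter, weights and replicate block, 7 at an adjusted p of 0.10, and 4 to 5 when an array was left out. All 9 differences stayed negative. Whether same-numbered arrays belong together was not settled. Their deviations from the group means correlated at 0.22, -0.06 and -0.10 for numbers 1, 2 and 3. The arrays numbered 1 correlated best with each other, and those numbered 2 and 3 with other numbers. With so few arrays, whose deviations cancel out within a group, this check cannot decide. With the replicate block, 459 probe sets passed over all against 811, mitochondrial quality control had 1 gene and clients 2. Mitochondrial quality control also had 1 gene after quantile and after cyclic loess normalization, and 1 to 3 when an array was left out. Client genes numbered 2 with array weights or without the dimmest 40% of probe sets, 3 at an adjusted p of 0.10, and 0 to 2 when an array was left out (2 without ILPD array 5). Heat shock factors and regulators had 1 gene with array weights, without dim probe sets or at an adjusted p of 0.10, and 0 to 1 when an array was left out (1 without ILPD array 5). Other cochaperones numbered 8 at an adjusted p of 0.10. The Hsp70 arm had 4 to 12 when an array was left out. The causes were not tested, except that leaving out an array lowers the sample number. Over all probe sets, 172 passed without placebo array 2 and 975 without ILPD array 5.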

Other observations

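Heat shock element letters were also counted in the RefSeq promoter windows of the lists outside the set, as a description with no test. A pair of GAA units was found in 11 of 23 windows of the Hsp70 arm, 6 of 25 of mitochondrial quality control, 2 of 33 of the other cochaperones, 2 of 37 of the client genes and 1 of 24 of the heat shock factors and regulators. Over all 33469 windows the share with a pair was 15.9%. The 2 cochaperones were Cacybp, which fell, and Pih1d1, which did not pass. Of the 11 genes of the Hsp70 arm, Bag3, Dnaja1, Hspa8, Hsph1, Hspb1 and Dnajb1 fell, while Hspa4l (-0.44), Hspb8 (-0.30), Hspb6 (-0.11), Hspa2 (0.01) and Dnajb6 (0.05) did not pass. Dnaja4 (-0.73), Dnajb4 (-0.48), Hspa4 (-0.46) and Hikeshi (-0.44) also fell and were not among the genes with a pair. Either their windows held none or no window was matched. Of the 6 mitochondrial genes, Hspd1, Hspe1 and Hspa9 fell, Spg7 (-0.13) and Tomm22 (-0.04) did not pass, and Clpp had no probe set named here. At least 3 alternating units stood in the windows of Dnaja1, Hspa8, Hsph1, Hspd1 and Hspe1, and in 0.798% of all windows. The client genes with a pair were Akt1 (-0.38) and Pgr (0.08) and the regulator was Vcp (-0.21), none of which passed. Ahsa2, Hsp90b1, Unc45b and St13 fell and were not among the cochaperones with a pair. For them too, either the window held none or no window was matched.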
